A study of Sus scrofa with 32 samples.

Results

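The autophagy and lysosome genes described here are those whose symbol follows a fixed naming pattern: the ATG genes, the GABARAP and MAP1LC3 genes, the ULK and WIPI genes, SQSTM1, TFEB, the LAMP genes, the single-letter cathepsins (CTSA to CTSZ), the subunits of the vacuolar proton pump (ATP6V genes) and the VPS genes of vacuolar protein sorting. The symbol alone decided membership. Of 102 such symbols in the gene name table used, 83 had an entry in the files, among 17930 gene identifiers in all, and 74 of the 83 carried enough reads to be tested, among 12821 genes tested. The other 19 symbols, which include GABARAP, CTSD, CTSK, ATG12 and ATG101, were not analysed here. Messenger RNA was sequenced from the longissimus dorsi, the long muscle of the back, of 32 wild-type pigs aged 6 months that were raised under similar housing and feeding. The pigs formed 4 groups of 8: Landrace (L), the Chinese breed Dapulian (DPL), the cross of both (LDPL), and a cross that adds Duroc (DLDPL). The study examined how transcription varied among these breeds, and each group was compared with each other group.

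Autophagy delivers cytoplasm, proteins and organelles to the lysosome. A start kinase built around ULK1 and ATG13 and a lipid kinase that marks the growing membrane, read by WIPI proteins, begin the process. A conjugation machinery that includes ATG7, ATG3, ATG5 and ATG16L1 attaches LC3 and GABARAP proteins to the membrane, where receptors such as SQSTM1 bring in ubiquitin-tagged cargo. The closed autophagosome fuses with the lysosome through tethering complexes that contain VPS proteins, and the lysosome, acidified by the proton pump and bounded by LAMP proteins, breaks the content down with cathepsins and other hydrolases. In muscle, autophagy is known for its part in protein turnover, in fasting and in the removal of worn mitochondria, and TFEB and FOXO transcription factors are known to act on its genes. An RNA level does not measure autophagic flux, which depends on the proteins and their activity.

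Depth ran from 21.7 to 29.7 per library in units of 1000000 reads, of which the 83 genes took between 0.288% and 0.540%. Reads of mitochondrially encoded genes made up 20.8% ± 2.58 (SD, n = 8) of the total for L, 31.3% ± 5.59 for DPL, 22.9% ± 4.37 for LDPL and 22.7% ± 4.86 for DLDPL. The deposited coverage of genes of at least 3000 bases had library medians averaging 80.0% in DPL and 83.2% in L. Whether this difference reflects RNA integrity or the share of reads left for nuclear genes was not tested. Levels within a gene are given in CPM, read counts relative to the library's total after scaling by the trimmed mean of M values, a scaling that offsets the larger mitochondrial share in DPL. Of the marker sets looked at, that of muscle fibres had the highest summed level in every library. The 6 fibre markers in the files summed to medians of 132151 CPM in L and 80594 CPM in DPL, and 3 of the 6 were lower and 1 higher in DPL. Markers of matrix fibroblasts were lower in DPL in 4 of 9 tested, of lymphocytes in 3 of 6, of satellite cells in 3 of 4 and of endothelium in 2 of 5. Of 6 adipocyte markers 1 was higher and 1 lower, and of all genes tested 18.8% were lower in DPL against L. In LDPL and DLDPL, lymphocyte markers were lower in 2 and 4, endothelial markers in 3 and 1, fibroblast markers in 2 and 0, and satellite cell markers in 1 and 1. Adipocyte markers were lower in 1 and 1 and higher in 0 and 2. Fibre markers were higher in 1 and 1, and erythrocyte markers in 0 and 1 of 3 tested. Of all genes tested, 14.7% and 10.2% were lower in LDPL and DLDPL against L, and 14.8% and 11.6% higher. None of 8 tested macrophage markers differed. The part of these differences in cell content in the results below was not tested, and in bulk muscle fewer cells of a type and less RNA per cell cannot be told apart. The labels name no extraction or sequencing batch, so a difference in handling between groups cannot be told apart from breed.

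To rank genes against each other, RPKM was used, which divides the reads by gene length and by the library's total. SQSTM1 was the most abundant of the set, with a mean RPKM of 480 over the 32 libraries. It was followed by CTSV at 123, MAP1LC3B at 110, MAP1LC3A at 91.1, CTSB at 77.5 and GABARAPL2 at 62.2 RPKM. The leading genes were thus the cargo receptor, the LC3 and GABARAP proteins and cathepsins. Retromer subunit VPS29 (36.5 RPKM), the start kinase ULK1 (34.9), the lysosomal membrane protein LAMP1 (34.4) and the vesicle protein ATG9A (33.9) came next with closely spaced means. Among the 74 tested genes, the SD of log2 CPM within groups was largest for CTSL (0.80) and CTSW (0.77) and smallest for VPS52 (0.14) and ATG3 (0.15).

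**Figure D1:**
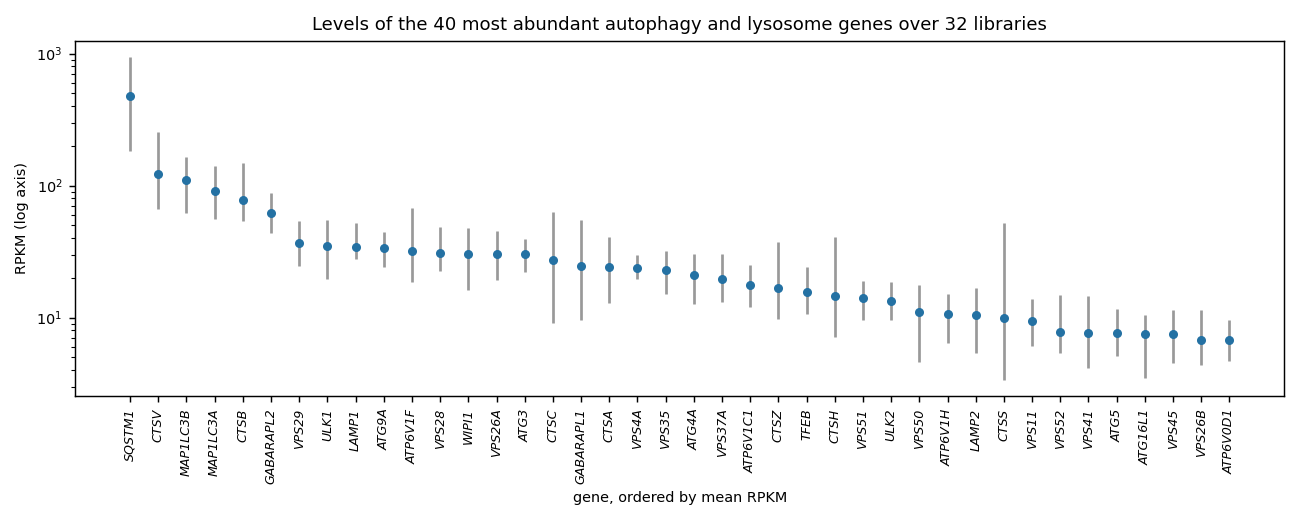
Mean RPKM (points, log axis) and the range over all 32 libraries (bars) of the 40 most abundant autophagy and lysosome genes, ordered by mean. SQSTM1 stands at a mean of 480 RPKM, and CTSS has a wide range beside its mean of 9.91 RPKM.

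Low counts left 9 of the 83 genes untested. LAMP5, known from brain, and ATP6V1B1, a pump subunit of the kidney, reached at most 2 and 1 reads in any library, and ATP6V1B2, the common form of that subunit, at most 4. Over all 32 libraries ATP6V1B2 had 18 reads, beside 14154 for ATP6V1A of the same pump sector. Whether the ATP6V1B2 entry captures the reads of this gene was not tested, so its low count is uncertain. ATG9B and ULK4 reached 8 reads each, and ATP6V1E2 reached 10. ATP6V0A4 reached 64, ATP6V1C2 84 and ATP6V0D2 91 reads in 1 library each, against totals of 304, 214 and 164 reads over all 32 libraries. ATP6V0A4 had reads in 28 libraries, ATP6V1C2 in 25 and ATP6V0D2 in 11.

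Against L, 26 of the 74 tested genes changed in DPL, 19 higher and 7 lower. In LDPL 23 changed, 14 higher and 9 lower, and in DLDPL 17 changed, 10 higher and 7 lower. These and all later calls are adjusted p-values under 0.05 from edgeR's quasi-likelihood test with Benjamini-Hochberg adjustment over all 12821 genes. The share of members called was 35.1% in DPL, 31.1% in LDPL and 23.0% in DLDPL, beside 38.0%, 29.5% and 21.8% of all genes tested, so these genes changed about as often as other genes. Split by direction in DPL, 25.7% of members were higher and 9.46% lower, beside 19.2% and 18.8% of all genes. Corresponding shares in LDPL were 18.9% and 12.2% beside 14.8% and 14.7%, and in DLDPL 13.5% and 9.46% beside 11.6% and 10.2%. Counts for single roles below stand beside these shares of all genes. Whether any role differed from them was not tested. The median log2 change of the 74 genes was 0.04 in DPL, -0.03 in LDPL and -0.01 in DLDPL, and over all genes -0.02, -0.03 and -0.02. The larger number of rises in DPL and LDPL was not seen under every setting. With relative log expression size factors 20 were higher and 7 lower in DPL, and with mitochondrially encoded genes removed 19 and 7. With both the unit and the model changed, limma on log2(RPKM + 1) called 10 members higher and 15 lower in DPL. It called 7 and 11 in LDPL, and 9 and 3 in DLDPL. Over all 12821 genes, limma called 1277 higher and 3412 lower in DPL, 1214 and 2058 in LDPL, and 1008 and 1237 in DLDPL. The median of all genes moved to -0.12 in DPL, so the lower calls there were not particular to the members. All 3 comparisons share the L libraries. Side by side, 8 genes were higher and 4 lower than L in every one of them, and 40 were called in none. The same patterns were not counted over all genes, so these numbers are not read as particular to the set.

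**Figure D2:**
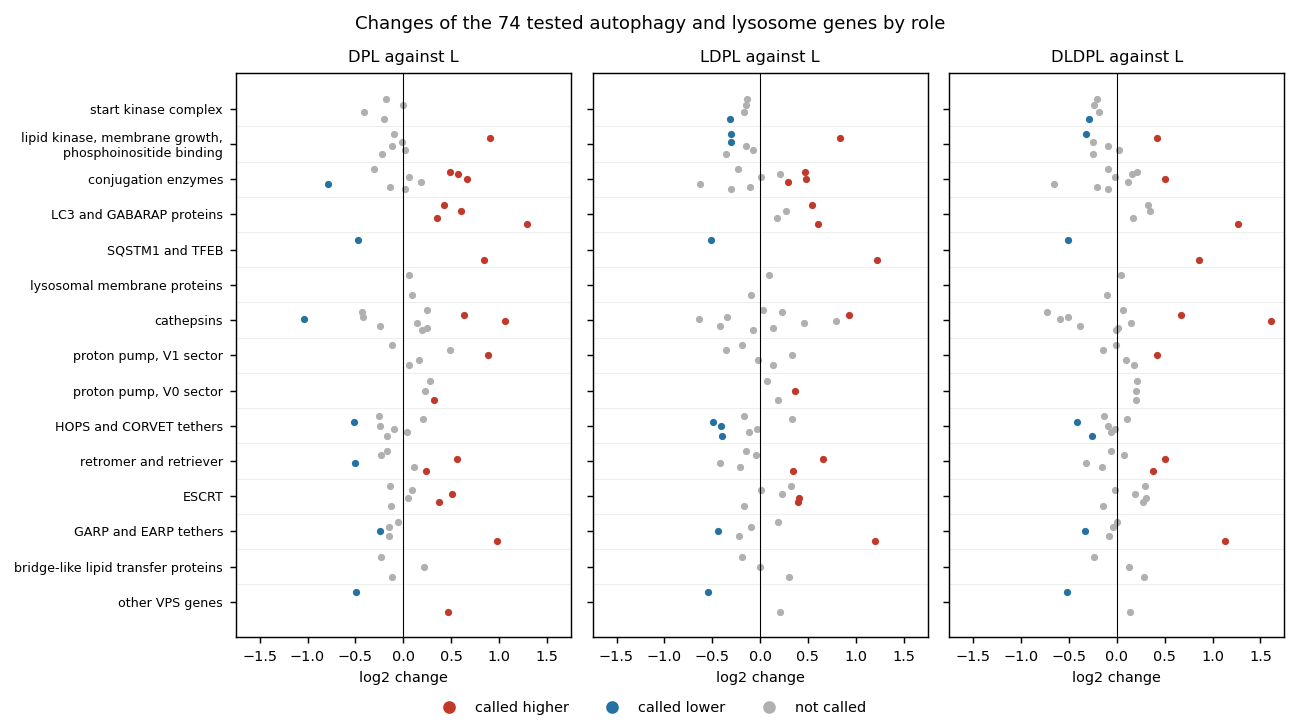
Log2 change (x axis) of the 74 tested genes in DPL, LDPL and DLDPL against L, one point per gene, grouped by role (y axis). Red points were called higher, blue points lower and grey points were not called. All 4 LC3 and GABARAP points lie right of 0 in every panel, and most roles hold both red or blue and grey points.

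SQSTM1 encodes p62, the receptor that binds ubiquitin-tagged cargo and LC3. Its lowest, median and highest levels were 387, 618 and 741 CPM in L, 665, 1105 and 1431 CPM in DPL, 899, 1389 and 1867 CPM in LDPL, and 722, 1091 and 1574 CPM in DLDPL. Every LDPL library lay above every L library, while DPL and DLDPL overlapped L at their lower ends. SQSTM1 rose 1.80-fold in DPL (log2 change 0.85, SE 0.18, adjusted p = 0.000384), 2.33-fold in LDPL (1.22, SE 0.18, adjusted p = 5.83e-06) and 1.81-fold in DLDPL (0.86, SE 0.18, adjusted p = 0.00084). The other 3 groups did not differ from each other in this gene at the threshold. TFEB, a transcription factor known for switching on lysosomal and autophagy genes, went the other way. It ranged from 39.4 to 73.5 CPM in L with a median of 58.1, from 29.5 to 56.2 CPM in DPL (median 37.3), from 29.2 to 49.3 CPM in LDPL (median 41.0) and from 31.0 to 48.8 CPM in DLDPL (median 41.1). The groups overlapped, with the highest TFEB levels in L. TFEB fell by 0.47 in DPL, by 0.51 in LDPL and by 0.51 in DLDPL on the log2 scale (adjusted p = 0.00673, 0.00477 and 0.00705).

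LC3 and GABARAP proteins coat the autophagosome and bind receptors. Of their 4 measured genes, 4 rose in DPL, 2 in LDPL and 1 in DLDPL, and none fell. Of all genes, 19.2%, 14.8% and 11.6% were higher in these groups. With only the 2 groups in the fit, MAP1LC3A (log2 change 0.35, adjusted p = 0.028) and MAP1LC3B (0.34, adjusted p = 0.0423) were also called higher in DLDPL. GABARAPL1 had the largest rise of the set in DPL. It ran from 15.7 to 31.9 CPM in L with a median of 22.1, from 30.3 to 77.8 CPM in DPL (median 51.4), from 17.7 to 51.9 CPM in LDPL (median 34.4) and from 40.5 to 73.8 CPM in DLDPL (median 46.3). All DLDPL libraries exceeded all L libraries, and 1 DPL library fell within the L range. The rise was 2.46-fold in DPL (log2 change 1.30, SE 0.18, adjusted p = 1.3e-06), 1.52-fold in LDPL (0.60, SE 0.18, adjusted p = 0.0117) and 2.40-fold in DLDPL (1.26, SE 0.18, adjusted p = 7.1e-06). MAP1LC3A had medians of 111 CPM in L (range 81.4 to 123), 156 in DPL (83.2 to 215), 129 in LDPL (99.2 to 150) and 138 in DLDPL (96.4 to 169), and passed the threshold in DPL (log2 change 0.60, SE 0.14, adjusted p = 0.000805). MAP1LC3B had medians of 142 CPM in L (99.6 to 166), 198 in DPL (112 to 262), 206 in LDPL (135 to 254) and 175 in DLDPL (136 to 219). Its ranges overlapped throughout. It rose in DPL (0.42, SE 0.14, adjusted p = 0.0181) and LDPL (0.54, SE 0.14, adjusted p = 0.0042), and without DPL replicate 19 the DPL value was 0.34 (adjusted p = 0.0559). GABARAPL2 rose least, from a median of 66.3 CPM in L (61.8 to 76.4) to 81.4 CPM in DPL (62.4 to 128). Its log2 change of 0.35 (SE 0.14, adjusted p = 0.039) lost the call on leaving out any 1 of 9 libraries (L replicates 1, 2, 4, 5, 7 and 9, DPL replicates 19, 23 and 30), with adjusted p up to 0.121. The calls of MAP1LC3B and GABARAPL2 in DPL were also lost with limma on log2(RPKM + 1), at 0.23 (adjusted p = 0.242) and 0.15 (adjusted p = 0.341).

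**Figure D3:**
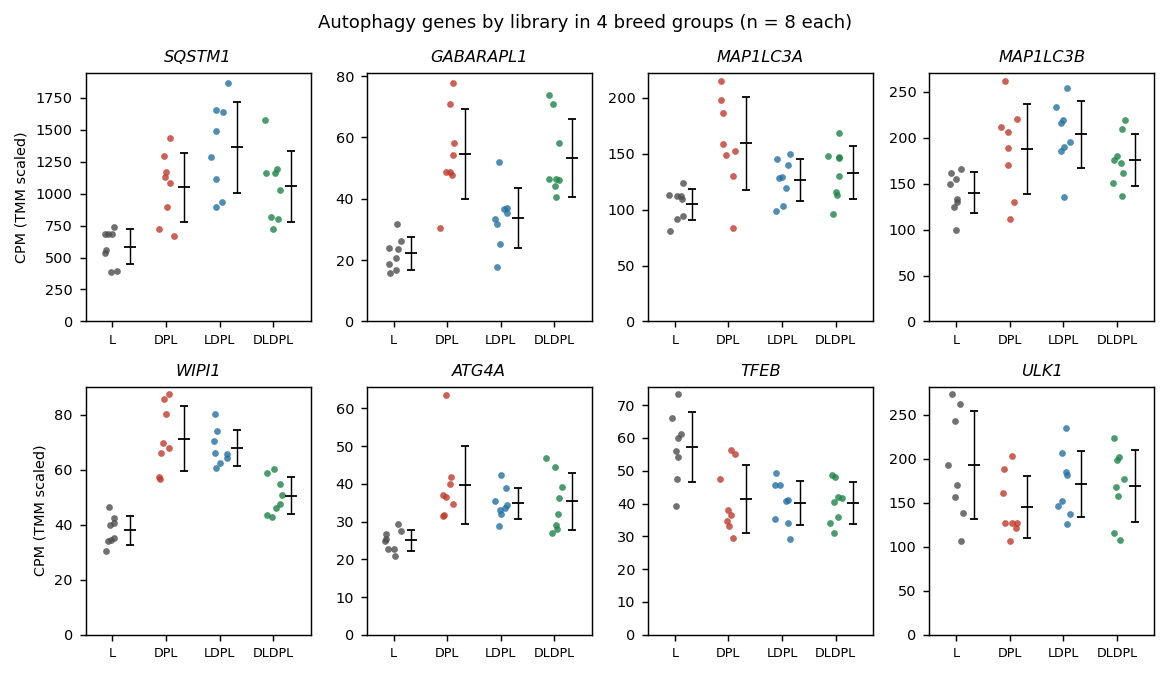
CPM of 8 autophagy genes in each library by breed group, with the group mean and SD (n = 8) in black and axes starting at 0. The 8 LDPL points of SQSTM1 and the 8 DPL and 8 LDPL points of WIPI1 lie above all L points, while the groups overlap for TFEB and ULK1.

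Of the 4 tested genes of the start kinase complex, none was called in DPL. ATG13, the regulatory subunit that links the kinase to the nutrient sensor mTORC1, was lower in both crosses. Of all genes, 14.7% were lower in LDPL and 10.2% in DLDPL. ATG13 ran from 23.7 to 33.2 CPM in L (median 27.2), from 18.9 to 26.6 in LDPL (median 22.0) and from 19.6 to 31.4 in DLDPL (median 22.0), with overlap in both cases. It fell by 0.32 in LDPL (adjusted p = 0.0224) and by 0.30 in DLDPL (adjusted p = 0.0424) on the log2 scale. The DLDPL call was lost on leaving out any 1 of 11 libraries (L replicates 1, 2, 7 and 8, DLDPL replicates 6, 20, 25, 27, 28, 29 and 32), with adjusted p up to 0.0985. ULK1, the kinase itself, had a median of 181 CPM in L (107 to 274) and 127 CPM in DPL (106 to 203), at a log2 change of -0.41 (SE 0.18, adjusted p = 0.0678). It passed the threshold when L replicate 2 (-0.51, adjusted p = 0.0176), L replicate 9 (-0.47, adjusted p = 0.0437), DPL replicate 19 (-0.47, adjusted p = 0.0429) or DPL replicate 21 (-0.49, adjusted p = 0.0319) was left out, and with limma on log2(RPKM + 1) (-0.52, adjusted p = 0.0124).

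WIPI1 and WIPI2 bind the lipid made by the class III lipid kinase at the growing membrane. WIPI1 had the smallest adjusted p of the set in DPL. Its levels were 30.5 to 46.3 CPM in L with a median of 37.7, 56.6 to 87.4 CPM in DPL (median 68.8), 60.6 to 80.1 CPM in LDPL (median 65.8) and 42.8 to 60.4 CPM in DLDPL (median 49.1). DPL and LDPL lay wholly above L, and DLDPL lay between, overlapping L and DPL but not LDPL. WIPI1 rose 1.88-fold in DPL (log2 change 0.91, SE 0.10, adjusted p = 3.34e-08), 1.79-fold in LDPL (0.84, SE 0.10, adjusted p = 2.54e-07) and 1.33-fold in DLDPL (0.42, SE 0.10, adjusted p = 0.00355). WIPI2 was lower in both crosses, from a median of 38.8 CPM in L (31.4 to 46.6) to 31.0 in LDPL (23.8 to 39.9) and 32.3 in DLDPL (24.3 to 35.8). It fell by 0.30 in LDPL (adjusted p = 0.0263) and by 0.32 in DLDPL (adjusted p = 0.0246). The DLDPL call was lost without L replicate 1 (-0.28, adjusted p = 0.063), L replicate 8 (-0.28, adjusted p = 0.0563) or DLDPL replicate 27 (-0.27, adjusted p = 0.0611). ATG9A, the membrane protein of the vesicles that seed the autophagosome, was lower in LDPL (-0.30, SE 0.11, adjusted p = 0.0344). Neither ATG14, a subunit of the lipid kinase complex, nor the lipid transfer proteins ATG2A and ATG2B were called in any comparison with L.

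Of the 9 conjugation enzymes, 3 rose and 1 fell in DPL, 3 rose in LDPL and 1 rose in DLDPL. ATG4A, a protease that prepares GABARAP and LC3 proteins for conjugation, had medians of 25.2 CPM in L (20.8 to 29.3), 36.8 in DPL (31.6 to 63.6), 34.0 in LDPL (28.8 to 42.2) and 34.2 in DLDPL (26.9 to 46.8). Every DPL library exceeded every L library, and the crosses overlapped L slightly. Its log2 changes were 0.66 in DPL (SE 0.13, adjusted p = 0.000115), 0.48 in LDPL and 0.50 in DLDPL. ATG4D, a related protease, rose in DPL from a median of 23.8 CPM (18.2 to 37.3) to 36.8 CPM (27.9 to 53.0), a log2 change of 0.57 (SE 0.15, adjusted p = 0.00335). ATG5, which is joined to ATG12 and directs LC3 to the membrane, rose from a median of 5.44 CPM in L (4.78 to 7.48) to 8.17 in DPL (4.99 to 10.9) and 8.21 in LDPL (5.11 to 10.3). These log2 changes of 0.49 (SE 0.15, adjusted p = 0.00897) and 0.47 (SE 0.15, adjusted p = 0.0157) were not called with limma on log2(RPKM + 1), where they were 0.27 (adjusted p = 0.133) and 0.35 (adjusted p = 0.0704). ATG16L2, a relative of the scaffold ATG16L1, was the gene that fell, from a median of 1.84 CPM in L (1.35 to 2.26) to 0.986 CPM in DPL (0.499 to 2.004). The fall was 0.79 on the log2 scale (SE 0.28, adjusted p = 0.0235), and it lost the call without DPL replicate 11, 19 or 21 (adjusted p up to 0.0545). ATG7, the enzyme that activates both conjugation arms, was at a log2 change of -0.31 in DPL (adjusted p = 0.0641), and it passed the threshold without L replicate 8 (adjusted p = 0.0287) or L replicate 9 (adjusted p = 0.0358), and with limma on log2(RPKM + 1) (-0.34, adjusted p = 0.0488).

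The lysosomal membrane proteins LAMP1 and LAMP2, which form much of the lysosome's inner coat, were called in none of the comparisons. LAMP1 ran from 62.8 to 93.1 CPM in L and from 63.9 to 90.5 CPM in DPL, with medians of 75.8 and 80.5. LAMP2 had a median of 76.1 CPM in both groups, from 62.6 to 82.0 in L and from 52.6 to 95.4 in DPL. Their log2 changes in DPL were 0.09 (SE 0.09, adjusted p = 0.454) and 0.06 (SE 0.10, adjusted p = 0.709), and on log2(RPKM + 1) they were -0.07 and -0.11.

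Cathepsins are the proteases of the lysosome. Of 10 tested, 2 rose and 1 fell in DPL, 1 rose in LDPL and 2 rose in DLDPL. CTSV, identifier ENSSSCG00000011171, and CTSL, identifier ENSSSCG00000010948, are close relatives whose names come from the gene name table. The sharing of reads between such relatives was not tested, and whether the abundant entry named CTSV is the gene called CTSL in other species was not settled, so both are reported as uncertain. CTSV had medians of 113 CPM in L (67.8 to 170), 167 in DPL (104 to 321), 183 in LDPL (150 to 395) and 178 in DLDPL (120 to 282). The ranges overlapped, and the highest CTSV levels were in LDPL and DPL. Its rise was 1.90-fold in LDPL (log2 change 0.93, SE 0.23, adjusted p = 0.00305), 1.56-fold in DPL (0.64, SE 0.23, adjusted p = 0.0298) and 1.59-fold in DLDPL (0.67, SE 0.23, adjusted p = 0.0373). The DPL call was lost without L replicate 1 (adjusted p = 0.0509), L replicate 2 (adjusted p = 0.0692), DPL replicate 11 (adjusted p = 0.099) or DPL replicate 21 (adjusted p = 0.0826), and the DLDPL call on leaving out any 1 of 8 libraries (L replicates 1, 2, 5, 9 and 10, DLDPL replicates 6, 18 and 25; adjusted p up to 0.0893). CTSL was scarce, at 0.474 to 4.06 CPM in L (median 0.820), 1.30 to 5.42 in DPL (median 2.42), 1.08 to 4.05 in LDPL (median 1.97) and 1.57 to 8.26 in DLDPL (median 2.60). One L library, replicate 2, held the highest CTSL level of its group. CTSL rose 3.05-fold in DLDPL (log2 change 1.61, SE 0.40, adjusted p = 0.00424) and 2.10-fold in DPL (1.07, SE 0.41, adjusted p = 0.0364). Without L replicate 2 these log2 changes were 2.21 and 1.67 (adjusted p = 0.000578 for the latter). The DPL call was lost on leaving out any 1 of 9 other libraries (L replicates 4, 5, 7, 8, 9 and 10, DPL replicates 11, 16 and 19; adjusted p up to 0.1). CTSO, a cysteine cathepsin of low abundance, fell by 1.04 on the log2 scale in DPL (SE 0.26, adjusted p = 0.00219), from a median of 2.28 CPM (1.42 to 2.52) to 0.818 CPM (0.418 to 2.12). In the crosses CTSO was not called in the main test, with other size factors or without the filter. With only the 2 groups in the fit it fell by 0.64 in LDPL (adjusted p = 0.0242) and by 0.59 in DLDPL (adjusted p = 0.0379). DESeq2 called it lower in LDPL (-0.63, adjusted p = 0.049).

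Of the other 7 cathepsins none was called. CTSB, a broad lysosomal protease, had medians of 150 CPM in L (120 to 214), 175 in DPL (141 to 216), 158 in LDPL (109 to 230) and 143 in DLDPL (131 to 193). Its log2 change in DPL was 0.24 (SE 0.13, adjusted p = 0.142), and without L replicate 2 it was 0.32 (adjusted p = 0.0459). CTSS, known from antigen-presenting cells, ran from 7.74 to 51.8 CPM in L (median 12.3), 7.65 to 17.8 in DPL (median 12.5), 9.33 to 27.1 in LDPL (median 10.5) and 5.65 to 20.9 in DLDPL (median 11.5). The 51.8 CPM of L replicate 2 was apart from the other 31 libraries. With it the log2 change in DPL was -0.42 (SE 0.32, adjusted p = 0.309), and without it 0.08 (adjusted p = 0.826). The same library had the highest summed level of the 9 macrophage markers in the files, 166 CPM. Over L as a whole that sum ran from 21.9 to 166 CPM (median 40.5), over DPL from 41.3 to 113 (median 52.3), over LDPL from 36.5 to 117 (median 52.6) and over DLDPL from 36.4 to 77.6 (median 50.2), and no marker was at 0 in all libraries of a group. Over the 32 libraries, with each group's mean removed, CTSS followed this sum at Pearson's r = 0.74 (permutation p = 0.00012, adjusted over 10 cathepsins 0.0012) and Spearman's rho = 0.58 (permutation p = 0.0011, adjusted 0.011). Without the 2 libraries farthest from the median r was 0.44. Within groups r was 0.97 over the L libraries, 0.54 over DPL, 0.87 over LDPL and 0.02 over DLDPL, so the relation did not hold within DLDPL. CTSH (r = 0.69), CTSW (0.62), CTSZ (0.61), CTSL (0.58), CTSB (0.55) and CTSO (0.38) also varied with the sum, with adjusted permutation p from 0.0021 to 0.0222, rho from 0.39 to 0.52 (adjusted 0.0218 to 0.038), and r from 0.26 (CTSB) to 0.50 (CTSH) without the same 2 libraries. The relation was near 0 or negative within DPL for CTSB (r = -0.12) and within DLDPL for CTSW (0.04) and CTSO (0.08). CTSA (0.11) and CTSC (-0.02) did not pass. CTSV varied against it, at r = -0.37 (adjusted permutation p = 0.048) and rho = -0.20 (adjusted 0.309), with r = -0.88 over the L libraries, -0.07 over DPL, -0.09 over LDPL and -0.49 over DLDPL. The part of macrophage content in the cathepsin levels was not tested further.

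**Figure D4:**
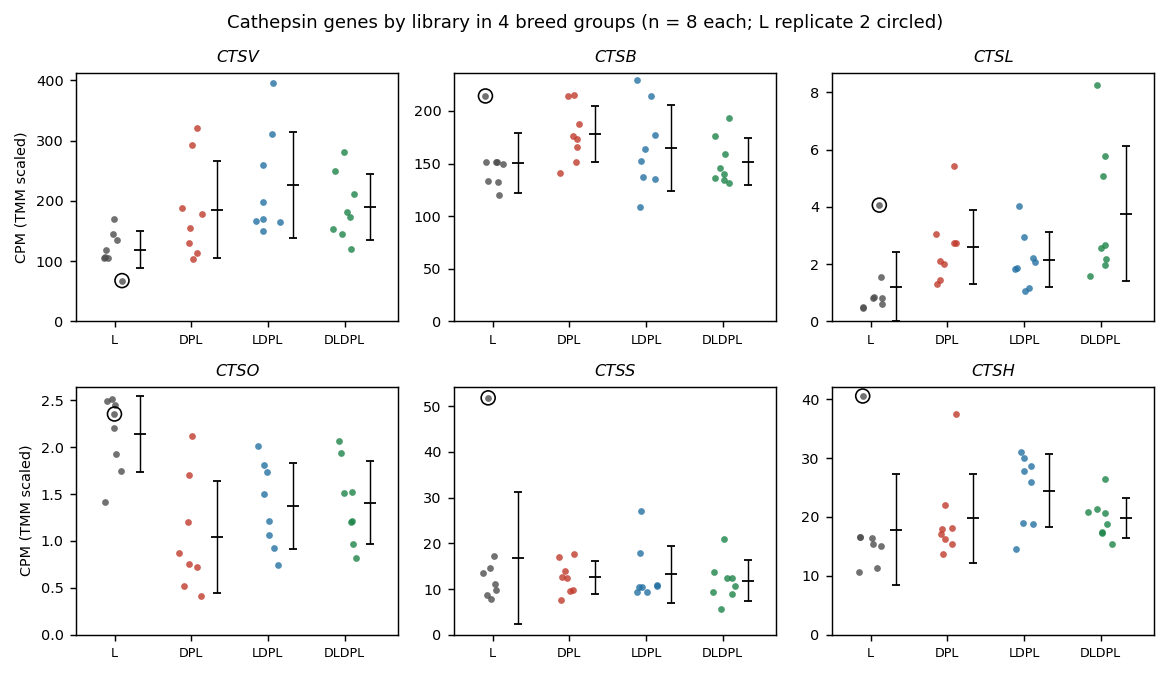
CPM of 6 cathepsin genes in each library by breed group, with the group mean and SD (n = 8) in black, axes starting at 0 and L replicate 2 circled. That library is the highest of its group for CTSB, CTSL, CTSS and CTSH and the lowest for CTSV.

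The vacuolar proton pump acidifies the lysosome through a membrane sector, V0, and a catalytic sector, V1. Of 5 tested V1 genes, 1 rose in DPL and 1 in DLDPL, and of 3 tested V0 genes, 1 rose in DPL and 1 in LDPL. The V1 gene was ATP6V1F in both cases. It stood at 18.9 to 29.8 CPM in L (median 23.8), 32.5 to 66.1 in DPL (median 41.6), 20.5 to 41.7 in LDPL (median 28.4) and 24.2 to 39.5 in DLDPL (median 31.8). All DPL libraries were above all L libraries. The rise was 1.84-fold in DPL (log2 change 0.88, SE 0.14, adjusted p = 5.85e-06) and 1.34-fold in DLDPL (0.42, SE 0.14, adjusted p = 0.0248). Among the V0 genes, the membrane subunit ATP6V0A1 rose in DPL (0.32, SE 0.11, adjusted p = 0.0165) and its relative ATP6V0A2 in LDPL (0.36, SE 0.13, adjusted p = 0.0353). The catalytic subunit ATP6V1A had medians of 16.0 CPM in L and 16.1 CPM in DPL and was at a log2 change of 0.06 (SE 0.15, adjusted p = 0.782). Its sign turned without L replicate 4 or DPL replicate 11 and on log2(RPKM + 1).

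VPS proteins sort and tether endosomal and lysosomal membranes. VPS50 is the subunit that sets the EARP complex, a tether of recycling endosomes, apart from the related GARP complex of the Golgi. Levels of VPS50 were 11.0 to 18.5 CPM in L (median 14.1), 14.8 to 39.5 in DPL (median 28.6), 23.6 to 41.1 in LDPL (median 32.1) and 24.7 to 37.3 in DLDPL (median 31.2). All libraries of both crosses exceeded all L libraries, and DPL overlapped L at its low end. VPS50 rose 1.98-fold in DPL (log2 change 0.98, SE 0.15, adjusted p = 2.82e-06), 2.30-fold in LDPL (1.20, SE 0.15, adjusted p = 2.3e-07) and 2.18-fold in DLDPL (1.12, SE 0.15, adjusted p = 1.27e-06). The other subunits of both tethers did not rise. VPS52, which both complexes share, had medians of 21.8 CPM in L (18.0 to 24.4), 17.2 in DPL (16.5 to 21.0), 15.5 in LDPL (14.2 to 18.9) and 17.1 in DLDPL (15.4 to 19.8). It fell by 0.25 in DPL (adjusted p = 0.0209), by 0.44 in LDPL (adjusted p = 0.000226) and by 0.33 in DLDPL (adjusted p = 0.00485). The DPL fall was not called without the filter on low counts or with only the 2 groups in the fit (adjusted p up to 0.0597). VPS51, VPS53 and VPS54, the remaining subunits, were not called.

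The retromer, which returns receptors from endosomes, consists of VPS35, VPS29 and a VPS26 protein. VPS29 rose in all 3 groups and did not overlap with L in any: it was at 63.3 to 75.3 CPM in L (median 67.4), 78.1 to 127 in DPL (median 98.6), 87.2 to 144 in LDPL (median 100.5) and 86.8 to 109 in DLDPL (median 93.2). The log2 changes were 0.57 in DPL (SE 0.10, adjusted p = 4.97e-05), 0.65 in LDPL (SE 0.10, adjusted p = 1.25e-05) and 0.50 in DLDPL (SE 0.10, adjusted p = 0.000593). VPS26A rose less, by log2 changes of 0.23, 0.34 and 0.38 (adjusted p = 0.0457, 0.00594 and 0.00347). VPS35, the core on which the other subunits assemble, had a median of 66.8 CPM in L (59.7 to 73.4) and 58.7 in DPL (48.3 to 63.3), at a log2 change of -0.23 (SE 0.10, adjusted p = 0.0652). It passed the threshold without L replicate 2 (-0.27, adjusted p = 0.038) or DLDPL replicate 29 (-0.24, adjusted p = 0.0488), and with limma on log2(RPKM + 1) (-0.38, adjusted p = 0.00553). VPS26C, a subunit of the related retriever complex, fell by 0.51 in DPL (SE 0.19, adjusted p = 0.0365), from a median of 2.42 CPM (2.07 to 4.48) to 2.26 CPM (1.08 to 2.43). That call was lost without L replicate 1, 2 or 4 or DPL replicate 7 or 23 (adjusted p up to 0.0937), and without the filter or with only the 2 groups in the fit.

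HOPS and CORVET tether endosomes and lysosomes, and HOPS also joins autophagosomes to lysosomes. Of their 7 measured genes none rose against L, while 1 fell in DPL, 3 in LDPL and 2 in DLDPL. VPS39, a HOPS subunit, had medians of 28.4 CPM in L (23.5 to 37.3), 20.4 in DPL (15.8 to 24.0), 20.9 in LDPL (13.2 to 27.4) and 20.3 in DLDPL (18.7 to 27.0). L was highest, with overlap at its low end. VPS39 fell by 0.51, 0.49 and 0.42 on the log2 scale in DPL, LDPL and DLDPL (SE 0.12 each, adjusted p = 0.00144, 0.00303 and 0.0144). VPS11, shared by both tethers, fell by 0.40 in LDPL (adjusted p = 0.0014) and by 0.26 in DLDPL (adjusted p = 0.0398), and VPS33A, which handles the fusion proteins, fell by 0.41 in LDPL (adjusted p = 0.00943). The shared subunit VPS18 was at 9.74 to 13.5 CPM in L and 7.95 to 13.9 CPM in DPL, at a log2 change of -0.10 (adjusted p = 0.531). ESCRT genes, which bend and cut membranes, gave 2 rises of 6 in DPL and 2 of 6 in LDPL. VPS37C rose in DPL with no overlap, from 9.22 to 14.1 CPM in L (median 12.1) to 14.4 to 20.2 CPM in DPL (median 16.7), a log2 change of 0.51 (SE 0.12, adjusted p = 0.000875). VPS37A, another subunit of the same complex, rose in DPL (0.37, adjusted p = 0.0151) and LDPL (0.39, adjusted p = 0.0138), and VPS37B rose in LDPL (0.40, adjusted p = 0.036). Outside these complexes, VPS45, a regulator of endosomal fusion, rose in DPL (0.47, SE 0.12, adjusted p = 0.0023). VPS9D1 fell by 0.50 in DPL, 0.54 in LDPL and 0.52 in DLDPL (adjusted p = 0.0124, 0.0087 and 0.0161), from a median of 7.49 CPM in L (5.27 to 9.53) to 5.16, 4.81 and 5.06 CPM. None of the 3 lipid transfer proteins VPS13A, VPS13B and VPS13D was called.

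**Figure D5:**
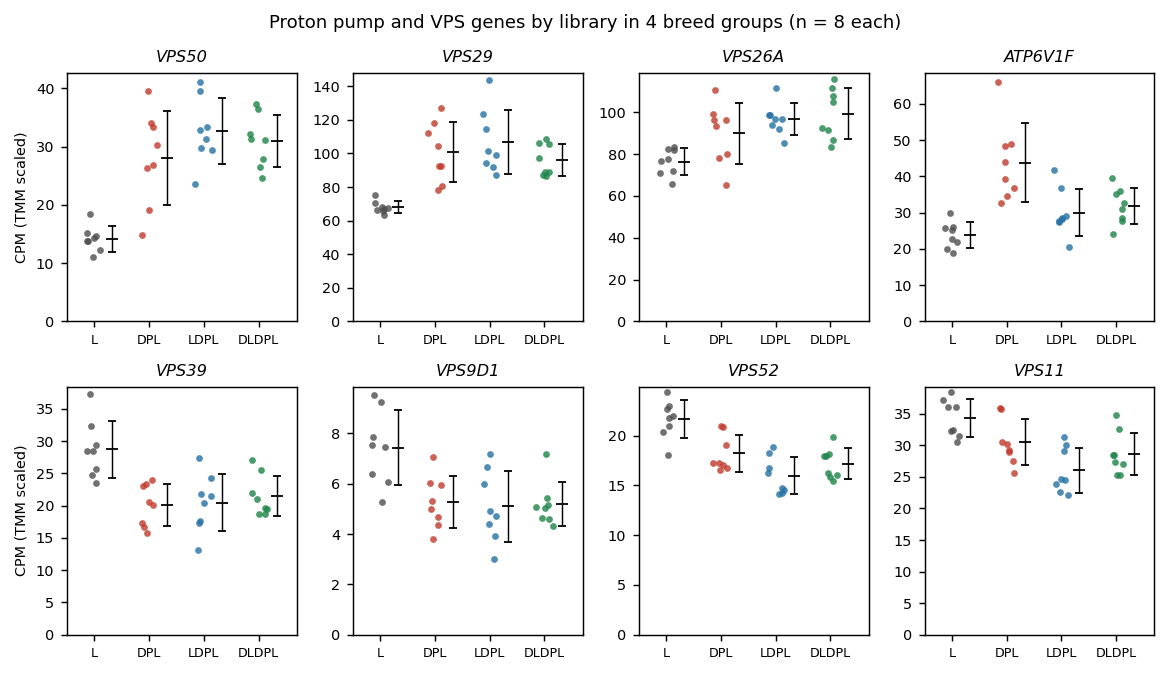
CPM of the proton pump gene ATP6V1F and 7 VPS genes in each library by breed group, with the group mean and SD (n = 8) in black and axes starting at 0. VPS29 shows no overlap between L and any other group, and VPS39, VPS9D1, VPS52 and VPS11 have their highest group means in L.

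The 40 tested genes called in none of the comparisons with L cover most roles. They include the kinases ULK1, ULK2 and ULK3, the conjugation genes ATG7, ATG10, ATG16L1 and ATG4C, 7 of the 10 cathepsins (CTSA, CTSB, CTSC, CTSH, CTSS, CTSW and CTSZ), the pump subunits ATP6V0D1, ATP6V1A, ATP6V1C1, ATP6V1G2 and ATP6V1H, and the ESCRT genes VPS28, VPS4A and VPS4B. The tether subunits VPS8, VPS16, VPS18 and VPS41 and the retromer and retriever genes VPS26B, VPS35 and VPS35L were also among them. Their log2 changes ran from -0.43 to 0.49 in DPL, from -0.42 to 0.45 in LDPL and from -0.73 to 0.29 in DLDPL, and 32, 31 and 35 of the 40 were within 0.25 of 0. A p-value over the threshold does not show that these genes were equal between breeds.

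Among DPL and the crosses few of these genes differed. LDPL had 2 of 74 genes lower than DPL and none higher (2.70%, beside 2.71% of all genes, of which 1.47% were lower and 1.24% higher), and DLDPL likewise had 2 lower and none higher (2.70%, beside 3.99% of all genes, with 2.01% lower and 1.97% higher). GABARAPL1 was 1.62-fold lower in LDPL than in DPL (log2 change -0.70, SE 0.18, adjusted p = 0.0336), a call that was lost without LDPL replicate 5, 9, 10 or 15 or DPL replicate 19 or 21 (adjusted p up to 0.0686). ATP6V1F was 1.46-fold lower in LDPL (-0.55, SE 0.14, adjusted p = 0.0268), lost without LDPL replicate 5 or 10 or DPL replicate 11 (adjusted p up to 0.0625), and 1.38-fold lower in DLDPL (-0.46, SE 0.14, adjusted p = 0.046), lost on leaving out any 1 of 17 of the 32 libraries (adjusted p up to 0.125). WIPI1 was 1.41-fold lower in DLDPL than in DPL (-0.49, SE 0.10, adjusted p = 0.00452), and leaving out any single library kept this call. All 4 calls were lost with limma on log2(RPKM + 1), and those of GABARAPL1 and ATP6V1F also with only the 2 groups in the fit. Between the crosses, DLDPL against LDPL, edgeR called 0 of the 74 genes and 0% of all genes. Of the 74, 6 had an unadjusted p under 0.05, and the smallest adjusted p was 0.175, for WIPI1. DESeq2 called that gene lower in DLDPL (-0.42, adjusted p = 0.0428), and its library ranges of 42.8 to 60.4 CPM in DLDPL and 60.6 to 80.1 CPM in LDPL did not overlap.

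Genes of the same pathways outside the naming pattern were counted from separate lists. All pathway counts given from here on stand beside 19.2% of all genes higher and 18.8% lower in DPL against L. Whether any list differed from these shares was not tested. Of 12 partners of the ULK and lipid kinase complexes, 3 rose and 1 fell in DPL against L. VMP1, a membrane protein of the endoplasmic reticulum needed for autophagosome formation, ran from 23.6 to 45.9 CPM in L (median 28.4) and 45.6 to 109 in DPL (median 69.5) and rose 2.40-fold (log2 change 1.26, SE 0.16, adjusted p = 2.69e-07). RUBCN, an inhibitor of the lipid kinase, rose 1.86-fold (0.89, SE 0.16, adjusted p = 2.87e-05). Of 10 genes of autophagosome fusion 5 rose and none fell, with RAB2A, a small GTPase that works with HOPS, up 1.99-fold (0.99, SE 0.15, adjusted p = 3.37e-06) and the fusion protein YKT6 up 1.33-fold (0.41, SE 0.08, adjusted p = 0.000227). Of 8 transcription factors of autophagy 4 rose and 1 fell. FOXO1, an activator of muscle autophagy and atrophy genes, was at 22.3 to 45.4 CPM in L (median 33.8) and 51.2 to 136 CPM in DPL (median 90.4), with no overlap, and rose 2.73-fold (1.45, SE 0.19, adjusted p = 4.48e-07). PPARA, a nuclear receptor of fatty acid metabolism, rose 2.12-fold (1.09, SE 0.23, adjusted p = 0.000266).

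Of 8 receptors for autophagy of the endoplasmic reticulum, 1 rose and 1 fell. The rise was RETREG1, which shapes and tags reticulum sheets for breakdown. It ran from 25.7 to 54.6 CPM in L (median 33.4), 369 to 1049 in DPL (median 479), 295 to 1088 in LDPL (median 549) and 240 to 656 in DLDPL (median 467). Every library of the 3 other groups was above every L library, by the largest margin among the genes named here. RETREG1 rose 15.7-fold in DPL (log2 change 3.97, SE 0.25, adjusted p = 1.73e-13). ATL3, another such receptor, fell by 0.47 (SE 0.11, adjusted p = 0.00103). Of 11 other cargo receptors tested, 2 rose and 2 fell in DPL. Among them PHB2, a receptor of the inner mitochondrial membrane, rose 1.42-fold (0.50, SE 0.08, adjusted p = 1.39e-05).

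Of 15 genes that control autophagy through mTORC1 and AMPK, 5 rose and 1 fell in DPL. RHEB, the GTPase that activates mTORC1, was at 80.6 to 102 CPM in L (median 87.0) and 149 to 200 CPM in DPL (median 169), without overlap, and rose 1.94-fold (log2 change 0.95, SE 0.09, adjusted p = 8.06e-10). LAMTOR1, which anchors mTORC1 at the lysosome, rose 1.44-fold (0.53, SE 0.11, adjusted p = 0.000265). Among 28 lysosomal hydrolases and activators outside the cathepsins, 4 rose and 8 fell. The peptidase TPP1 went from 60.1 to 92.7 CPM in L (median 72.9) to 31.2 to 53.1 CPM in DPL (median 45.9), again without overlap, and fell by 0.74 (SE 0.12, adjusted p = 1.88e-05). FUCA1, the lysosomal fucosidase, fell by 0.88 (SE 0.17, adjusted p = 8.82e-05). Among 18 other lysosomal membrane proteins 6 rose and 5 fell, with the tetraspanin CD63 up 1.87-fold (0.91, SE 0.12, adjusted p = 5.22e-07) and ATP6AP2, an accessory protein of the proton pump, up 1.39-fold (0.47, SE 0.10, adjusted p = 0.000207). Neither tested cathepsin inhibitor, CSTB (-0.08, adjusted p = 0.726) or CST6 (0.84, adjusted p = 0.0712), was called.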

How the data were processed

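RNA sequencing read counts and RPKM values per gene were deposited by the authors for 32 longissimus dorsi libraries, with gene length and the percentage of the gene covered, per the file headers. Libraries were made with a NEBNext Ultra RNA kit, per the labels' protocols, and whether counting used strand was not given in the sources used, and overlapping genes may share reads. The submitters' processing notes list Bowtie 0.12.2, Cufflinks and the mouse build mm8, while the deposited counts carry pig Ensembl identifiers, so the build behind them is uncertain. Of 17930 identifiers, 60.4% had a symbol in the gene name table. Deposited RPKM values equalled those recomputed from counts, length and total reads.

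Counts were fitted with edgeR 4.0.16 (R 4.3.3) over all 32 libraries: filterByExpr with a minimum count of 10 and a minimum total of 15, TMM scaling, a quasi-likelihood test for each pair of groups, and Benjamini-Hochberg adjustment over 12821 genes, called under 0.05. The SE of a log2 change was taken from the change and its F value. The fit was also run on simulated counts with the same biological spread for every gene and 200 changed genes. The 32 libraries differ from that in both, so no conclusion is drawn from the run. Alternatives were DESeq2 1.42.0, other size factors, removal of mitochondrially encoded genes, no filter, limma 3.58.1 on log2(RPKM + 1) with a pseudocount of 1, only the 2 groups compared, a replicate block, and each library left out in turn. Correlations used 100000 permutations within groups. Named are, in DPL against L, the 12 largest called rises and falls, in other pairs the 6 largest, a panel of well-known genes, and from each pathway list the 2 smallest adjusted p-values, while further called members are given briefly. A gene that this rule names is not reported here. Members and lists were chosen with earlier results of these data known. The labels describe 32 pigs, and p-values reflect only the spread among their libraries, which could be partly technical.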

Additional observations from a re-analysis of the deposited data

Results flagged for a closer look

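Among the 140 sets of 8 libraries looked at for the named genes, 7 held 1 library whose gap to the rest was wide for its group, and chance alone marks about 1 in 20. In L, replicate 2 stood highest for CTSS at 51.8 CPM, where the other L libraries ran from 7.74 to 17.2, and for CTSB at 214 CPM, where the others ran from 120 to 152. This library also had the highest summed macrophage markers, at 166 CPM. In DPL, replicate 23 was highest for ATG4A at 63.6 CPM (others 31.6 to 41.7) and lowest for VPS26C at 1.08 CPM (others 1.81 to 2.43). In DLDPL, replicate 18 was highest for ATG13 at 31.4 CPM (others 19.6 to 22.6) and for VPS9D1 at 7.17 CPM (others 4.30 to 5.45). LAMP2 in DLDPL replicate 28 was at 101 CPM, with the others at 66.7 to 78.4.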

How the results depend on the processing

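With limma on log2(RPKM + 1), 10 members were called higher and 15 lower in DPL against L. In LDPL against L 7 were higher, and in DLDPL against L 3 were lower. Against DPL, 0 were lower in LDPL, and 1 was higher (VPS35) and 0 lower in DLDPL. Over all genes limma called 1277 higher and 3412 lower in DPL against L, and the cause was not tested. There the log2 changes of ATP6V1A (-0.081), LAMP1 (-0.070) and LAMP2 (-0.11) in DPL against L turned sign, and calls against L were lost for ATG5, ATP6V0A1, CTSL, CTSV, GABARAPL2, MAP1LC3B, VPS26A, VPS37A and VPS45 in DPL, for ATG3, ATG5, ATP6V0A2, GABARAPL1, VPS26A, VPS37A and VPS37B in LDPL, and for ATG13, ATP6V1F, VPS11, VPS39, VPS52 and WIPI2 in DLDPL. Called lower there but not in the main test were ATG7, ATG13, ULK1, VPS11, VPS28, VPS33A, VPS35 and VPS51 in DPL, ATG16L2 and CTSO in LDPL, and ATG16L2 in DLDPL. Without the filter on low counts the calls of VPS26A, VPS26C and VPS52 in DPL, ATG9A and WIPI2 in LDPL, and ATG13, CTSV and VPS11 in DLDPL were lost. With only the 2 groups in the fit those of VPS26A, VPS26C and VPS52 in DPL and ATG13 in DLDPL were lost. This fit also called MAP1LC3A and MAP1LC3B higher and ATG16L2 and CTSO lower in DLDPL against L. In LDPL against L it also called ATP6V1F higher and ATG16L2 and CTSO lower. Other size factors, removal of mitochondrially encoded genes and DESeq2 lost no call. Against L, DESeq2 also called ATG3 and ATP6V0D1 higher in DPL and CTSO lower in LDPL. Other size factors also called ATP6V0D1 higher in DPL. Against DPL, with only the 2 groups in the fit 0 were lower in LDPL and 1 in DLDPL, without the filter 1 was lower in DLDPL, and DESeq2 called 3 lower in LDPL (also ATP6V1G2, -0.86, adjusted p = 0.0319) and 1 higher (VPS35) in DLDPL, and 1 lower (WIPI1) in DLDPL against LDPL. Leaving out single libraries gave 15 to 21 higher and 6 to 9 lower in DPL, 12 to 15 and 6 to 11 in LDPL, and 8 to 11 and 4 to 7 in DLDPL against L, with 4 in the last case without L replicate 1, L replicate 8 or DLDPL replicate 27. Against DPL it gave 0 to 3 lower in LDPL and 1 to 3 in DLDPL, and 0 higher. Single-library omissions turned the sign of CTSS (0.080 without L replicate 2, lowest -0.53) and of ATP6V1A (-0.012 without DPL replicate 11, highest 0.12) in DPL against L. Besides the losses given with the genes, omission of 1 library ended calls against L for VPS26A (12 libraries) in DPL, for ATG9A (8), ATP6V0A2 (7), VPS37B (7), WIPI2 (4) and ATG13 (2) in LDPL, and for VPS11 (9) and ATP6V1F (3) in DLDPL, with adjusted p up to 0.113. Of 22 named genes called in DPL against L, 14 kept the call under every setting and omission tried. In LDPL against L 5 of 14 did, with the replicate block among the settings, and in DLDPL against L 7 of 12. Of the 2 called in LDPL against DPL and the 2 in DLDPL against DPL, 0 did.

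L and LDPL share 5 replicate numbers. With the replicate block on these libraries 6 genes were higher and 2 lower in LDPL, and without a block on the same libraries, an alternative chosen after seeing the data, 8 and 3. Of the 23 genes called in LDPL over all libraries, the call was lost for 17 with the block and for 16 without it on the same libraries. Gained with the block were CTSL (1.29, adjusted p = 0.0306) and CTSO (-0.94, adjusted p = 0.0484). Gained without it were CTSL and CTSH, both higher, and ATG16L2 and CTSO, both lower. Of the 5 L libraries, 0 correlated best with the LDPL library of the same number. With so few libraries this cannot show whether the numbers pair the samples. The sample titles number L apart, while the numbers of the other 3 groups run in 1 series without repeats. Whether L was handled apart from the other groups was not tested. For the other pairs no paired analysis was possible because they share at most 1 number. At these depths the 9 genes with low counts could not be tested.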
